A study of Danio rerio with 2 samples.

Results

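The keratin genes were taken as all genes whose symbol in the deposited gene lists is krt followed by a digit, which gave 20 of 25432 genes. Of these, 16 had at least 20 unique molecular identifiers (UMIs, each marking 1 captured transcript) over both libraries, and they were counted by library in cell classes that were named from marker genes. The data are 2 single-cell libraries from dissociated whole intestines of zebrafish, 1 from WT TL fish and 1 from nod2-/- fish, and each library pooled 5 fish. Per the methods, the fish of both groups were cohoused 6-month-old siblings of both sexes from a heterozygous in-cross, and the nod2-/- fish carry a frameshift deletion in every cell of the body. No treatment was given in either group. With 1 library per genotype there is no replicate, so no p-value was computed, and every interval below covers counting error only and not the spread between fish.

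Keratins form the intermediate filaments of epithelial cells. A type I and a type II keratin pair with each other to build a filament, and different cell types use different pairs. The pair of krt8 and krt18 is typical of simple epithelia such as the gut lining, whereas krt5 is known from basal and stratified epithelia such as skin. Filaments are tied to cell junctions by plakins, plakophilins and plakoglobin at desmosomes, and they give the cell sheet its mechanical strength.

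In the WT library 5891 cells gave 34052268 UMIs (median 3400 in a cell), and in the nod2-/- library 5599 cells gave 22244173 (median 1940). Levels are given as CPM, the UMIs of a gene divided by all UMIs of the same cells and scaled to parts per 1000000, so the difference in depth does not enter them directly. Since the kit counts the 3' end of each transcript, levels were not divided by gene length. The targeted gene nod2 had 139 UMIs in the WT library and 75 in the nod2-/- library (4.08 and 3.37 CPM). UMIs from the 3' end do not cover the deletion, so they do not check either genotype. Only 10 cell barcodes were found in both libraries, and none of them was a cnfn-positive or mesothelial-like cell.

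Keratins took up a like share of the RNA in both libraries, 133080 of all WT UMIs (0.391%, exact 95% interval 0.389% to 0.393%) and 89911 of all nod2-/- UMIs (0.404%, 0.402% to 0.407%). A few genes made up most of this. The type I gene krt92 (ENSDARG00000036834) had 45192 WT and 32930 nod2-/- UMIs, and the type II gene krt4 (ENSDARG00000017624) had 40661 and 25963. Next came krt18a.1 (ENSDARG00000018404), a type I partner of krt8, with 14163 and 5204 UMIs. The type II gene krt8 (ENSDARG00000058358) had 9665 and 7194. The type I gene krt91 (ENSDARG00000036830) had 7356 and 8261.

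The remaining members with at least 20 UMIs were less abundant, and several, but not all, differed widely in CPM between the libraries when all cells were summed. The WT library holds more UMIs, so a lower nod2-/- count is not by itself a lower level. The genes krt97 (ENSDARG00000000212) and krt96 (ENSDARG00000095147) had 5566 and 2221 UMIs in WT and 1609 and 744 in nod2-/-. These are 163 and 65.2 CPM in WT and 72.3 and 33.4 in nod2-/-. For krt15 (ENSDARG00000036840) the counts were 2860 and 3960 (84.0 and 178 CPM). For krt94 (ENSDARG00000044975) they were 1958 and 1319, which are like levels of 57.5 and 59.3 CPM. The type II gene krt5 (ENSDARG00000058371) was among those that were higher in the nod2-/- library, with 328 and 968 UMIs (9.63 and 43.5 CPM). krt18a.2 (ENSDARG00000058332) had 2023 and 1038 UMIs (59.4 and 46.7 CPM), and krt1-c5 (ENSDARG00000026979) 295 and 84 (8.66 and 3.78 CPM). krt222 (ENSDARG00000071518) had 411 and 268 UMIs, or 12.07 and 12.05 CPM. krt18b (ENSDARG00000028618) had 341 and 294 UMIs, but its level was higher in nod2-/-, at 10.0 and 13.2 CPM. krt17 (ENSDARG00000094041) and krt1-19d (ENSDARG00000023082) were close to the limit of detection in WT or nod2-/- cells, with 4 and 61 UMIs and with 33 and 13 UMIs. Of the other members, krt95 (ENSDARG00000014356) had 3 and 0 UMIs, krt98 (ENSDARG00000044973) had 0 and 1, and krt93 (ENSDARG00000044976) and krt99 (ENSDARG00000019365) had none, so that each of these could lie anywhere under about 3 UMIs in a library that showed 0.

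Only 3 members, krt4, krt5 and krt8, are type II keratins. They held 38.2% of the keratin UMIs in WT epithelial cells and 38.9% in nod2-/- epithelial cells. The type II share was lower in the cnfn-positive cells, 26.2% and 24.4%, and higher in tuft cells, 50.6% and 53.2%. This share differed more between these classes than between the libraries.

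The order of the members along the genome was looked up in the RefSeq annotation of the GRCz12tu assembly, which is not the build of the files, and all 20 members were matched. The type I genes krt93, krt94, krt98, krt15 and krt99 follow each other with no protein-coding gene between them. Likewise krt222, krt97 and krt96 stand next to each other, and so do krt5, krt8, krt18a.1 and krt18a.2, the last run mixing type I and type II genes. krt1-19d, krt92, krt17 and krt91 lie in 1 stretch together with krt1-19e, cyt1l and cyt1, whereas krt4 and krt18b have 1 other gene between them. Some neighbours in these runs were alike in where they were counted, and others were not. Over the 26 clusters with at least 50 cells, Pearson's r of log2(CPM + 10) was 0.88 for krt97 and krt96 and 0.85 for krt94 and krt15. It was 0.68 for krt8 and krt18a.1, 0.48 for krt5 and krt8 and 0.44 for krt17 and krt91. But it was only 0.28 for krt18a.1 and krt18a.2 and 0.01 for krt222 and krt97. The highest value among all pairs of members, 0.92, belonged to krt4 and krt92, which are not neighbours. These correlations describe clusters that share 2 libraries, and they are given without a test. Neighbouring copies such as krt18a.1 and krt18a.2 may share reads, so the split of counts between them is uncertain.

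**Figure D1:**
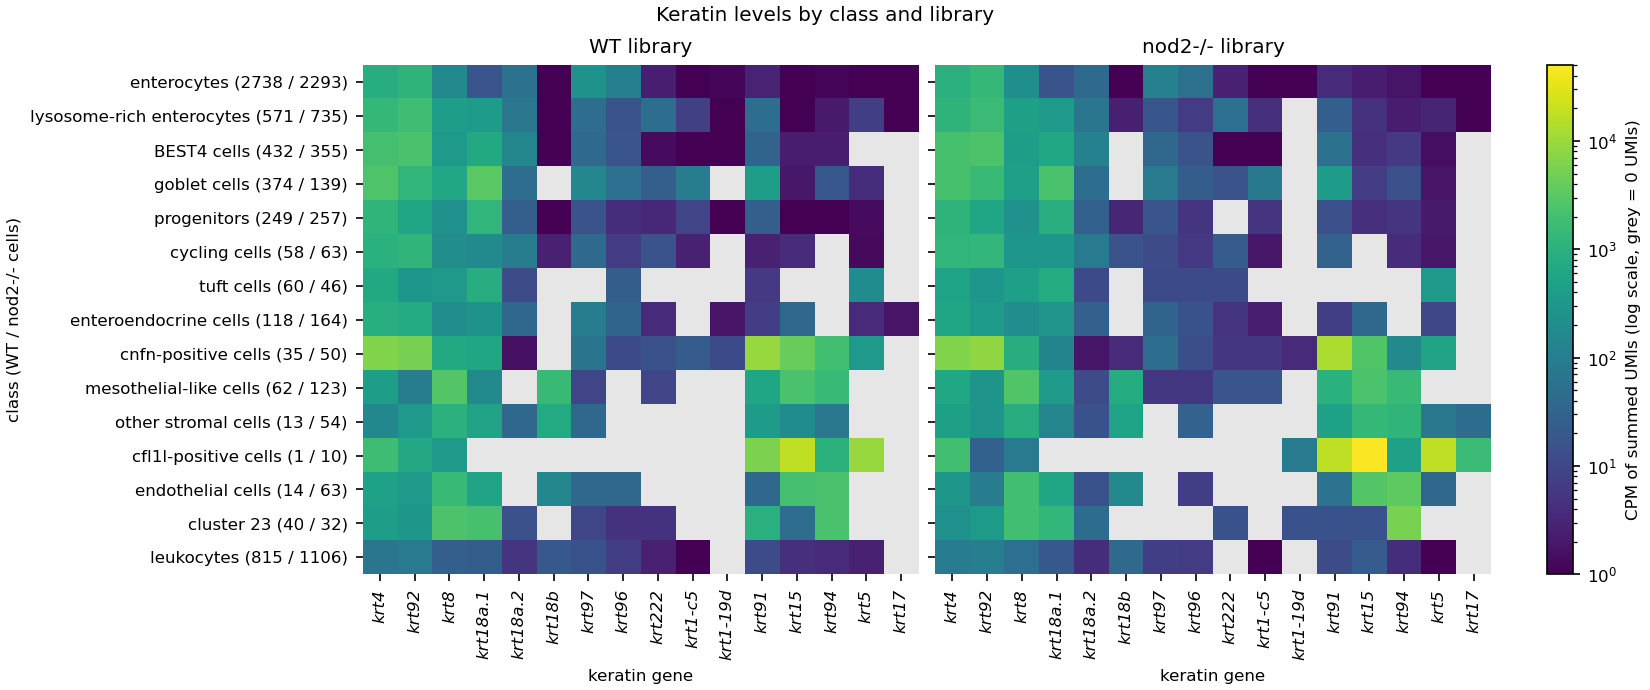
CPM of each keratin gene with at least 20 UMIs, from summed UMIs, in each cell class (rows, with the number of WT and nod2-/- cells) for the WT library on the left and the nod2-/- library on the right. The colour scale is logarithmic and grey means 0 UMIs. krt4 and krt92 reach every class, krt91 and krt5 are highest in the cnfn-positive and cfl1l-positive cells, and krt15 lies above 2000 CPM in these and in the mesothelial-like and endothelial cells.

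Keratins were distributed over the classes in distinct sets. The cells fell into 29 clusters, of which 23, 25 and 27 have no name. The gut lining was made up of enterocytes (2738 WT and 2293 nod2-/- cells), lysosome-rich enterocytes (571 and 735), BEST4 cells (432 and 355), goblet cells (374 and 139), progenitors (249 and 257), cycling cells (58 and 63), tuft cells (60 and 46), enteroendocrine cells (118 and 164) and cnfn-positive cells (35 and 50), and these 9 classes together are called epithelial cells here. Among them, the share of UMIs that came from keratins was lowest in enteroendocrine cells, at 0.237% in WT and 0.160% in nod2-/-, and in tuft cells, at 0.241% and 0.247%. Enterocytes had 0.261% and 0.275%. Lysosome-rich enterocytes had 0.421% and 0.373%. BEST4 cells, which carry the ion channels best4 and cftr, had 0.562% and 0.590%, and goblet cells, the mucus-secreting cells, had 0.840% and 0.689%. The cnfn-positive cells stood far above the rest of the lining, with 2.88% and 3.23%.

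Leukocytes, which are not known for keratins, were taken as the class in which most keratin UMIs would come from free RNA. Their keratin share was 0.0278% in WT (310 UMIs in 815 cells) and 0.0358% in nod2-/- (435 UMIs in 1106 cells). No keratin UMI was found in 599 of the WT and 857 of the nod2-/- leukocytes. krt18b is an exception for which leukocytes are no background: it had 104 CPM in WT and 198 in nod2-/- cells of leukocyte cluster 16, and 165 and 45.6 in cluster 26, but at most 6.95 in leukocyte clusters 6, 9, 13 and 20. krt8 was also uneven, with 126 and 162 CPM in cluster 16 and from 0 to 85.4 in the other leukocyte clusters. When each cell was thinned to 500 UMIs, krt92 was seen in 37.8% of WT and 37.9% of nod2-/- epithelial cells, beside 3.80% and 5.06% of leukocytes. krt4 was seen in 38.1% and 36.8% of epithelial cells, beside 3.31% and 3.25% of leukocytes. Without thinning, the epithelial shares were 78.1% and 74.0% for krt92 and 81.7% and 77.3% for krt4, at median depths of 4729 and 3116 UMIs per epithelial cell and 1116 and 914 per leukocyte.

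**Figure D2:**
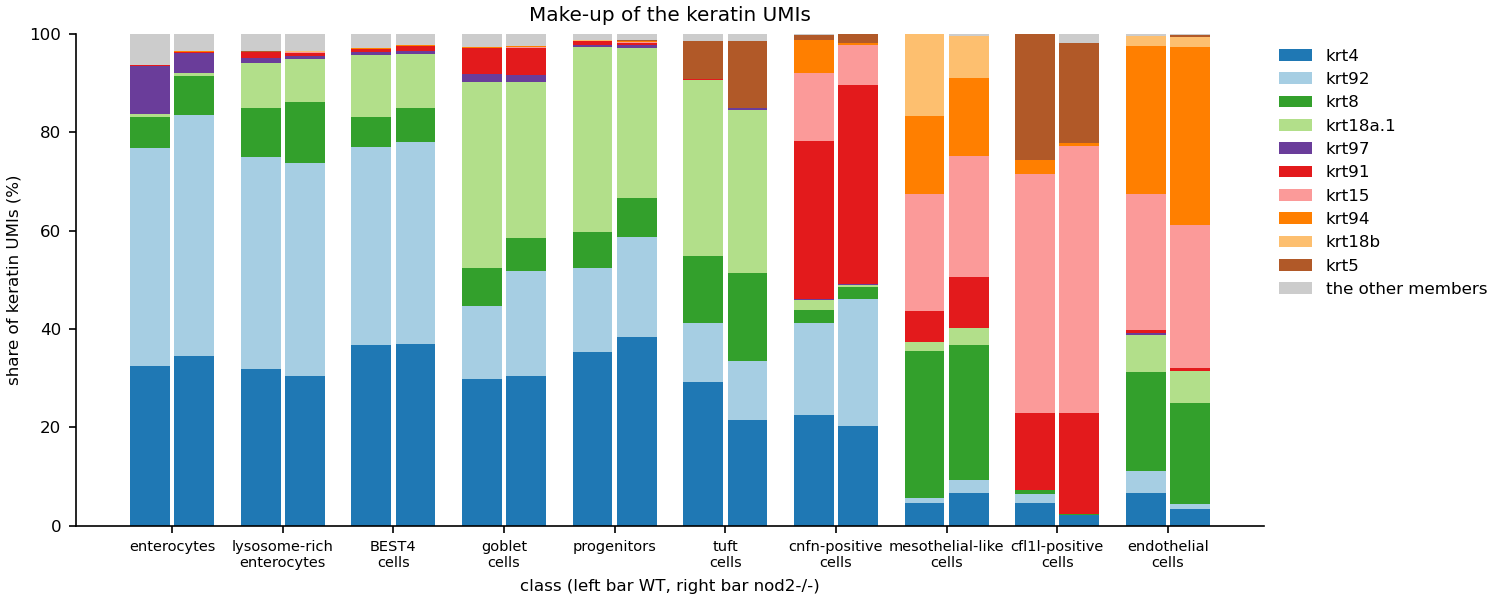
Share of the keratin UMIs (%) that each keratin gene contributed in each class, with the WT library as the left bar and the nod2-/- library as the right bar of each pair. krt4, krt92 and krt8 fill most of the enterocyte and BEST4 bars, krt18a.1 is large in goblet cells, progenitors and tuft cells, and krt91, krt15, krt94, krt18b and krt5 fill most of the mesothelial-like and cfl1l-positive bars.

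In the epithelium as a whole, the summed keratins hardly differed between the libraries, at 0.401% of WT and 0.404% of nod2-/- UMIs. The log2 ratio of the nod2-/- to the WT level was 0.01 (95% exact conditional interval -0.00 to 0.02). Single members behaved differently. Of the 15 members with at least 20 UMIs in epithelial cells, 4 were at least 2-fold lower in nod2-/- cells (krt1-c5, krt1-19d, krt94 and krt97), where 6.06% of all 16239 genes with as many UMIs were, and 1 was at least 2-fold higher (krt18b), where 3.36% of all genes were. The median log2 ratio was -0.14 over the members and -0.12 over all genes.

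The members that were 2-fold lower did not all rest on the same cells. krt97 was lower in enterocytes, lysosome-rich enterocytes, goblet cells and enteroendocrine cells. krt1-c5, at 8.88 CPM in WT and 3.90 in nod2-/- epithelial cells, had a log2 ratio of -1.19 (-1.57 to -0.82), but it is counted mainly in goblet cells, which are fewer in the nod2-/- library. When the 16 epithelial clusters were given their WT weights in both libraries, a calculation added after the data were seen, its ratio was -0.42. The same weighting moved krt18a.1 from -0.79 to -0.39, while krt97 went from -1.12 to -1.07 and the sum of all members had a ratio of -0.00. krt94, with 1251 WT and 140 nod2-/- UMIs, had the lowest ratio, -2.54 (-2.80 to -2.28), but nearly all of the WT UMIs came from a few cnfn-positive cells. Without the cnfn-positive cells its epithelial ratio was 0.14. krt18b and krt1-19d rested on few UMIs, 12 and 30 for krt18b and 32 and 9 for krt1-19d.

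**Figure D3:**
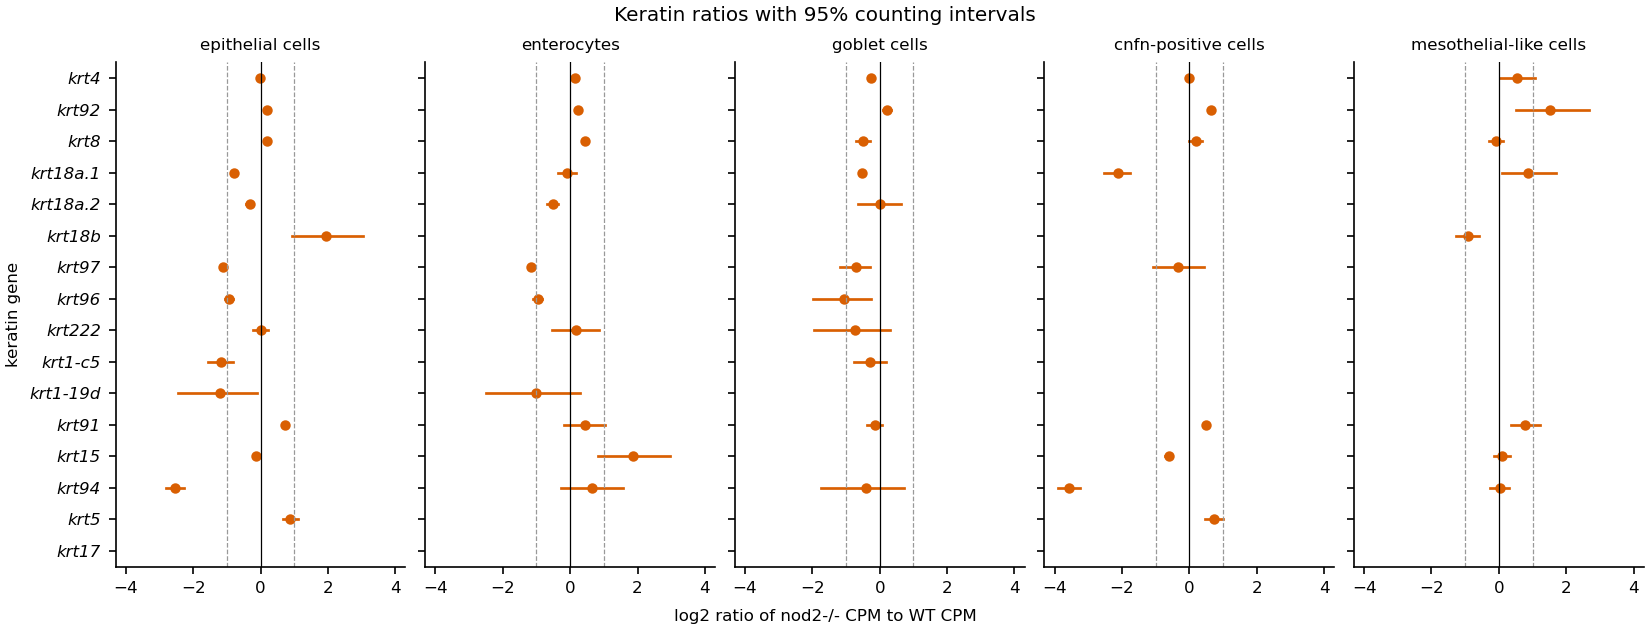
Log2 ratio of the nod2-/- CPM to the WT CPM (x axis) for each keratin gene (y axis) in 5 classes, with 95% exact conditional binomial intervals that cover counting error only. Dashed lines mark a 2-fold difference, and a ratio is drawn where both libraries together have at least 20 UMIs, which krt17 did not have in these classes. krt97 lies below the lower line in epithelial cells and enterocytes, and krt94 lies farthest below it in the cnfn-positive cells.

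Enterocytes, the absorptive cells of the gut, were the class in which krt97 and krt96 were concentrated. They held 82.4% of all krt97 UMIs and 85.2% of all krt96 UMIs over both libraries. Both genes were lower in nod2-/- enterocytes, while the abundant krt92, krt4 and krt8 were somewhat higher there. The level of krt97 was 254 CPM in WT (4555 UMIs) and 113 CPM in nod2-/- (1355 UMIs), a log2 ratio of -1.17 (-1.26 to -1.08), or -0.98 with TMM scaling, which sets libraries to a common level by a trimmed mean over genes. For krt96 it was 105 CPM (1877 UMIs) and 53.9 CPM (648 UMIs), a log2 ratio of -0.96 (-1.09 to -0.83). The difference was spread over many cells: the 5 cells with the most krt97 held 3.34% of its enterocyte UMIs in WT and 5.02% in nod2-/-.

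The lower krt97 level was seen in 5 of 5 enterocyte clusters, with log2 ratios from -1.57 to -0.61 and all intervals below 0. The highest levels were in cluster 0, led by apoa4a and alpi.2, where krt97 was at 469.7 CPM in the WT library and at 211 in the nod2-/- library. In cluster 4, led by the amino acid transporter slc6a19b, they were 209.9 and 70.8 CPM. In cluster 1, led by tcnba and chia.1, they were 96.8 and 56.1. krt96 was lower in 4 of the 5 clusters, with 213 and 98.9 CPM in cluster 0, and its interval lay below 0 in 3. In cluster 3 its log2 ratio was -0.34 (-1.20 to 0.47). In cluster 1 it had 29.8 and 30.4 CPM, a log2 ratio of 0.03 (-0.30 to 0.35). So the 2 neighbouring genes did not differ alike between the libraries in every cluster.

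**Figure D4:**
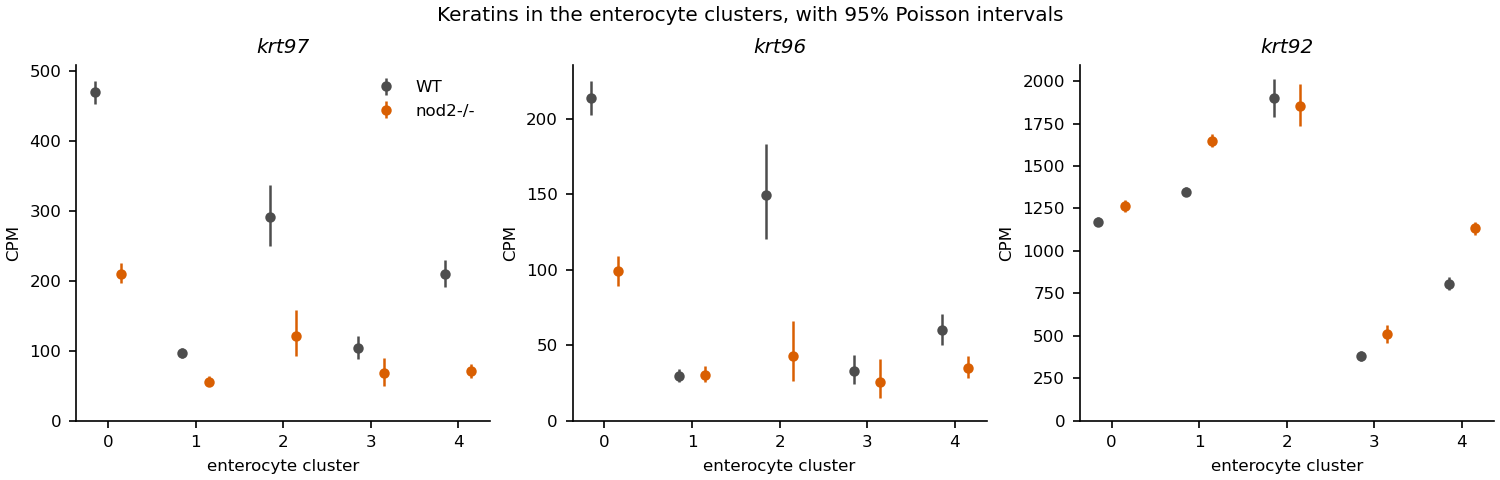
CPM of krt97, krt96 and krt92 in the 5 enterocyte clusters (x axis) with 95% exact Poisson intervals, WT in grey and nod2-/- in orange. krt97 is lower in nod2-/- cells in each cluster, from 469.7 against 211 CPM in cluster 0 to 96.8 against 56.1 CPM in cluster 1, whereas krt92 is lower only in cluster 2, where its intervals overlap.

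After thinning to 500 UMIs per cell, krt97 was seen in 11.3% of WT enterocytes (10.1% to 12.5%) and 4.36% of nod2-/- enterocytes (3.56% to 5.28%), beside 0.859% and 0.181% of leukocytes. The unthinned shares were 48.5% and 29.7%. For krt96 the thinned shares were 4.86% and 2.49%, beside 0.123% and 0.271% of leukocytes. In leukocytes only 17 WT and 9 nod2-/- UMIs of krt97 were counted, for a ratio of -1.04 (-2.39 to 0.20). The value of this background ratio was near that of enterocytes, but its interval spans 0. The leukocyte shares lay far below the enterocyte shares in both libraries, and the part of free RNA in the krt97 difference was not tested.

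Of the 12 members with at least 20 UMIs in enterocytes, krt97 and krt1-19d were at least 2-fold lower in nod2-/- cells, where 9.07% of all 13104 genes were, and krt15 was at least 2-fold higher, where 3.03% were. Both krt1-19d (21 and 7 UMIs) and krt15 (12 and 29 UMIs) rest on few counts. The krt15 levels of 0.668 and 2.41 CPM lay below those of leukocytes, 4.48 and 23.01 CPM. The nod2-/- leukocyte level is not an even background, since 5 of 1106 cells held 21 of its 28 UMIs. krt92 had 1155 and 1349.7 CPM, a log2 ratio of 0.23 (0.20 to 0.25). krt4 had 848 and 947 CPM, a ratio of 0.16 (0.12 to 0.19). krt8 had 163 and 221 CPM, a ratio of 0.44 (0.36 to 0.51), and was higher in nod2-/- cells in 5 of 5 clusters. The median log2 ratio was 0.16 over the members and -0.23 over all genes. krt18a.1 was scarce in enterocytes, at 17.5 and 16.4 CPM, whereas its neighbour krt18a.2 had 56.9 and 39.8 CPM and a log2 ratio of -0.51 (-0.67 to -0.36).

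Lysosome-rich enterocytes, which take up and digest luminal protein, used the same abundant keratins and were the main site of krt222. They held 69.8% of all krt222 UMIs. This gene, a keratin-like type I member, had 49.5 CPM in WT and 51.7 in nod2-/-, a log2 ratio of 0.06 (-0.21 to 0.33). It was higher in cluster 8, led by the protease ctsl.1 and the receptor cubn, with 83.3 and 92.9 CPM, than in cluster 5, led by fabp6, with 35.5 and 33.04 CPM. krt222 was thus placed apart from its neighbours krt97 and krt96. Of 13 members, krt5, krt97 and krt96 were at least 2-fold lower in nod2-/- cells, where 4.95% of 11404 genes were, and krt15 was higher, where 3.03% were. The krt97 level was 47.0 and 18.4 CPM, a log2 ratio of -1.36 (-1.76 to -0.97), and for krt96 it was 15.9 and 6.46 CPM. krt5 had only 42 and 12 UMIs, and its ratio of -1.29 was past 2-fold in 5 of 7 alternatives and was -0.17 as a mean of the CPM of each cell. krt15 had only 2 and 19 UMIs, and again the krt15 levels, 0.361 and 4.91 CPM, lay below those of leukocytes. krt92 had 1818 and 1621 CPM, krt4 1336 and 1134, and krt8 416 and 463. The summed keratins were lower in nod2-/- cells of this class, with a log2 ratio of -0.17 (-0.20 to -0.14), and the larger difference was in cluster 8, with 3346 and 2379 CPM, while cluster 5 had 4563 and 4347.

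BEST4 cells resembled enterocytes in their keratins, with krt92 at 2269 and 2419 CPM and krt4 at 2059 and 2177 CPM, but they had much more krt18a.1, at 707 and 643 CPM. None of the 8 members with enough UMIs was 2-fold lower or higher, where 8.24% and 2.38% of 8912 genes were. krt97 in these cells had 39.8 and 37.7 CPM, a log2 ratio of -0.08 (-0.61 to 0.44), an interval that does not reach the ratio seen in enterocytes. After thinning, however, krt97 was seen in only 2 WT and 5 nod2-/- BEST4 cells (0.463% and 1.41%). The WT share lay below that of leukocytes given above and the nod2-/- share above it, so the part of free RNA in this ratio is not known. Within the class the keratins differed by cluster. Cluster 7 had 8754 and 9264 CPM of all members and cluster 17 had 3380 and 3695.

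Goblet cells had the highest level of krt18a.1 in the lining. It reached 3168 CPM in WT (6262 UMIs) and 2192 in nod2-/- (1249 UMIs), a log2 ratio of -0.53 (-0.62 to -0.44). krt4 had 2501 and 2101 CPM, krt92 1257 and 1469, and krt8, the type II partner of krt18, 646 and 458. So krt18a.1, krt4 and krt8 were lower in nod2-/- goblet cells while krt92 was higher. After thinning, krt18a.1 was seen in 66.0% of WT (61.0% to 70.8%) and 63.3% of nod2-/- goblet cells (54.7% to 71.3%), beside 1.23% and 0.904% of leukocytes, and without thinning in 90.4% and 86.3%. krt1-c5 was mostly a goblet cell gene, with 63.1% of its UMIs in this class, at 97.6 and 80.7 CPM and a log2 ratio of -0.27 (-0.77 to 0.20). krt91 had 430 and 388 CPM here. Of 11 members only krt96 was at least 2-fold lower, at 51.6 and 24.6 CPM, where 8.92% of 7296 genes were, and none was higher, where 3.36% were. The krt96 ratio of -1.07 was past 2-fold in 7 of 9 alternatives and was -0.04 as a mean of the CPM of each cell. The summed keratins had a log2 ratio of -0.29 (-0.34 to -0.24), and the median per cell was 0.623% of the cell's UMIs in WT and 0.616% in nod2-/-. The medians were thus closer than the summed levels.

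The other classes of the lining can be told briefly. Progenitors, marked by her15.1 and dld, were led by krt18a.1 at 1256 and 925 CPM and krt4 at 1178 and 1159. Tuft cells, the chemosensory cells marked by pou2f3, were led by krt18a.1 at 861 and 817 CPM. They had 187 and 340.5 CPM of krt5 from 31 and 30 UMIs. In the lining only the cnfn-positive cells had more krt5, at 333 and 550 CPM. Enteroendocrine cells, which secrete hormones, had krt4 at 923 and 601 CPM and krt92 at 770.1 and 385, a log2 ratio of -1.001 (-1.28 to -0.73) for krt92. Their summed keratins had the lowest ratio of the classes of the lining, -0.57 (-0.71 to -0.43). krt97 in enteroendocrine cells was 95.1 and 32.7 CPM, from 53 and 13 UMIs.

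The cnfn-positive cells were the most keratin-rich cells of the lining. They formed 1 cluster of 35 WT and 50 nod2-/- cells led by cnfn, which encodes cornifelin, known in mammals from the cornified envelope of skin. At least 1 UMI of cnfn was found in 31 of the WT and all 50 of the nod2-/- cells, and icn, a calcium-binding protein of fish epithelia, in all cells of both. The cells had epithelial cdh1 (310.0 CPM in WT and 326 in nod2-/-) and epcam, but stromal collagen col1a2, wt1a and cdh5 were at 0 UMIs. Of the 13 markers for superficial epidermis or squamous lining, 7 had UMIs in WT and 9 in nod2-/-, with a summed level of 23523 and 22613 CPM, nearly all of it from icn. Among skin genes, cfl1l had 349 and 243 CPM and was seen in 28 WT and 34 nod2-/- cells, while cyt1, cyt1l, icn2 and cldni were at 0. The goblet cell gene agr2 had 2031 and 643 CPM, and 5 of the 7 goblet markers were at least 2 times their level in the median cluster, but none was among the 10 leading genes, and the cells are called by cnfn alone. Median depth was 11249 UMIs in WT and 6949 in nod2-/- cells, the highest of the named classes in both libraries.

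In these cells krt91 was the leading keratin. They held 80.7% of all krt91 UMIs in both libraries. krt91 had 9247 CPM in WT (5668 UMIs) and 13083 in nod2-/- (6941 UMIs), a log2 ratio of 0.50 (0.45 to 0.55). krt4 had 6492 and 6511 CPM, a log2 ratio of 0.00 (-0.06 to 0.07). krt92 had 5387 and 8343 CPM, a ratio of 0.63 (0.57 to 0.70). Thus krt4 and krt92 lay above their enterocyte levels in these cells, while krt91 had only 2.84 and 3.82 CPM in enterocytes. After thinning, krt91 was seen in 82.9% of WT (66.4% to 93.4%) and 94.0% of nod2-/- cells (83.5% to 98.7%), beside 1.23% and 0.814% of leukocytes, and without thinning in 97.1% and 98.0%. krt5, the type II keratin of stratified epithelia, had 333 and 550.4 CPM, a log2 ratio of 0.73 (0.46 to 0.99). krt8 had 724 and 829 CPM.

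Of the 9 members with enough UMIs, krt18a.1 and krt94 were at least 2-fold lower in nod2-/- cnfn-positive cells, where 9.95% of 4160 genes were, and none was higher, where 3.97% were. The median log2 ratio was 0.00 over the members and -0.13 over all genes. krt18a.1 had 578 CPM in WT (354 UMIs) and 132 in nod2-/- (70 UMIs), a log2 ratio of -2.13 (-2.52 to -1.76), and agr2, which like krt18a.1 is high in goblet cells, was also lower. The summed level of the 7 goblet markers was 2583 and 952 CPM, and its part in the krt18a.1 result was not tested. krt18a.1 was seen in 28 of 35 WT and 28 of 50 nod2-/- cells.

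krt94 and krt15 were present in only some of the cnfn-positive cells. krt94 had 1917 CPM in WT (1175 UMIs) and 162 in nod2-/- (86 UMIs), a log2 ratio of -3.56 (-3.90 to -3.25). Yet 5 WT cells held 1058 of the 1175 UMIs, and 20 WT and 44 nod2-/- cells had none. The counting interval takes no account of this concentration in a few cells. krt15 had 3981 and 2609 CPM, a log2 ratio of -0.61 (-0.71 to -0.51), with 5 cells holding 73.2% of its UMIs in WT and 76.1% in nod2-/-. krt15 was at 0 UMIs in 14 of 35 WT and 35 of 50 nod2-/- cells. Both genes were seen together in 12 WT and 4 nod2-/- cells, krt15 alone in 9 and 11, krt94 alone in 3 and 2, and neither in 11 and 33. Cells with krt15 were deeper, with medians of 16441 and 10643 UMIs, than cells without it, with 8440 and 5281, and the part of depth in the count of cells at 0 was not tested. After thinning, krt15 was seen in 37.1% of WT (21.5% to 55.1%) and 26.0% of nod2-/- cells (14.6% to 40.3%), and these intervals overlap.

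Per cell, keratins made up 0.214% to 4.18% of the UMIs of a WT cnfn-positive cell, with a median of 2.32%, and 0.826% to 5.68% of a nod2-/- cell, with a median of 3.24%. The ranges of the libraries overlap widely, with the median higher in nod2-/- cells. The summed keratins had a log2 ratio of 0.17 (0.14 to 0.20). A single cell held 13.0% of the class's keratin UMIs in WT and 9.17% in nod2-/-.

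**Figure D5:**
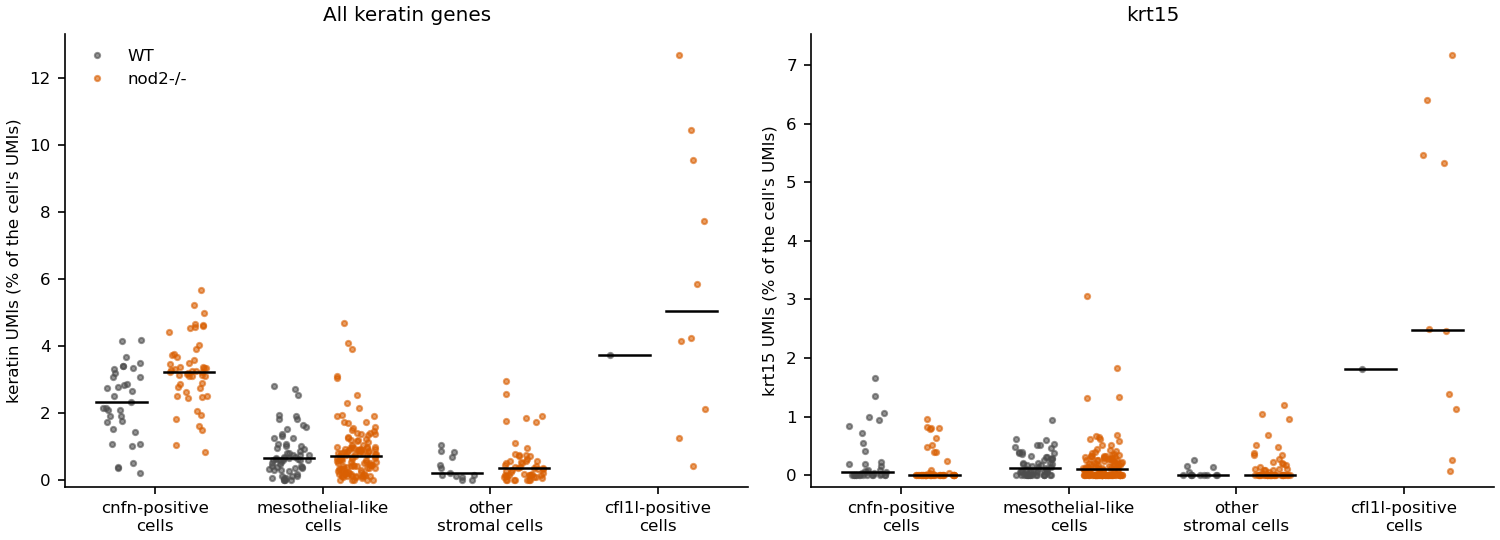
Keratin UMIs (left) and krt15 UMIs (right) as a percentage of all UMIs of each cell, for the cnfn-positive cells and the 3 groups of the stromal cluster, with 1 point per cell and a line at the median. The cnfn-positive cells have medians of 2.32% in WT and 3.24% in nod2-/-, the mesothelial-like cells 0.647% and 0.721%, and the 10 nod2-/- cfl1l-positive cells range from 0.417% to 12.7%.

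The mesothelial-like cells were the cells of the stromal cluster with at least 1 UMI of podxl, a surface sialomucin known from the mesothelium, the sheet that covers the gut's outer side. There were 62 WT and 123 nod2-/- cells. The mesothelial transcription factor gene wt1a was seen in 33 and 48 of them and col1a2 in 38 and 72, while the endothelial gene cdh5 was at 0 UMIs. Of the 9 mesothelial markers, 8 in WT and 7 in nod2-/- cells had at least 1 UMI. This count does not set the class apart, since 8 and 9 of them had a UMI in epithelial cells. The summed level of the 9 markers was 6933 and 5665 CPM, against 16.6 and 15.9 in epithelial cells. Of this sum, 4886 and 4044 CPM came from podxl, which the class requires, and 670 and 486 from wt1a. Because podxl had to be seen, shallow cells could miss the class.

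These cells differed from enterocytes in their leading keratins. They shared krt15 and krt94 with the cnfn-positive cells of the lining, which had 3981 and 2609 CPM of krt15 and 1917 and 162 CPM of krt94. In the mesothelial-like cells the order was as follows. krt8 led, with 2801 CPM in WT (297 UMIs) and 2645 in nod2-/- (452 UMIs), a log2 ratio of -0.08 (-0.30 to 0.13). krt15 followed with 2236 and 2376 CPM, a ratio of 0.09 (-0.15 to 0.33). Its neighbour krt94 had 1499.8 and 1522 CPM, a ratio of 0.02 (-0.27 to 0.31). In WT, krt18b lay between krt15 and krt94, with 165 UMIs against 159 of krt94. The lining's krt4 and krt92 were low, at 434 and 632 CPM and at 94.3 and 269 CPM, and krt97 had 1 UMI in each library. After thinning, krt8 was seen in 67.7% of WT (54.7% to 79.1%) and 59.3% of nod2-/- cells (50.1% to 68.1%), and krt15 in 43.5% and 47.2%, beside 0.245% and 0.542% of leukocytes for krt15. Without thinning these shares were 80.6% and 82.9% for krt8 and 72.6% and 61.8% for krt15.

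krt18b, a type I keratin, was mainly counted here, with 48.0% of all its UMIs in these cells. Its level was 1556 CPM in WT (165 UMIs) and 819 in nod2-/- (140 UMIs), a log2 ratio of -0.93 (-1.26 to -0.59). It was seen in 40 of 62 WT and 69 of 123 nod2-/- cells. The next largest share differed by library. In WT it was in cluster 27, an unnamed cluster of 22 WT and 9 nod2-/- cells, which held 34.02% of the WT but 5.10% of the nod2-/- UMIs. In nod2-/- it was in leukocytes, which held 6.45% of the WT and 17.3% of the nod2-/- UMIs, mostly in cluster 16. krt91 was higher in the nod2-/- mesothelial-like cells, at 585 and 1007 CPM, a log2 ratio of 0.78 (0.36 to 1.23).

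Of the 8 members with enough UMIs in mesothelial-like cells, krt92 was at least 2-fold higher in nod2-/- cells, where 8.32% of 1935 genes were, and none was lower, where 7.39% were. The krt92 result rests on 10 WT and 46 nod2-/- UMIs, and 1 nod2-/- cell held 29 of the 46. It stayed past 2-fold in 4 of 9 alternatives. Enterocyte markers moved with it: 9 of 10 were seen in WT and 10 of 10 in nod2-/- cells, and their summed level was 2329.8 CPM in WT and 10183 in nod2-/-. Their part in the krt92 result was not tested. The summed keratins of the class had 0.940% of UMIs in WT and 0.966% in nod2-/-, a log2 ratio of 0.04 (-0.08 to 0.15).

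The rest of the stromal cluster held a small number of very keratin-rich cells. These cells, 1 in WT and 10 in nod2-/-, had at least 3 UMIs in the sum of the skin genes cfl1l, cldni and icn2, a rule set after the values were seen. They are called by cfl1l, the only one of the 3 that was seen in all of them, at 6156 CPM in the WT cell and 4453 in the nod2-/- cells. cldni was seen in the WT cell and in 5 of the 10 nod2-/- cells, and icn2 in 6 nod2-/- cells and not in the WT cell. The epithelial genes cdh1 and epcam were each seen in the WT cell and in 7 of the 10 nod2-/- cells. cdh1 had 2052 CPM in WT and 938 in nod2-/-, and epcam had 1026 and 703. icn was seen in all of these cells, while tp63 and col17a1b were each seen in 4 nod2-/- cells and not in the WT cell. The stromal genes col1a1a and wt1a were at 0 UMIs, but col1a2 had 3 UMIs in 2 of the nod2-/- cells. Of the 10 stromal markers, 1 was seen in WT and 3 in nod2-/-, with a summed level of 1026 and 557 CPM. Keratins made up 3.73% of their UMIs in WT and 8.70% in nod2-/-. krt15 had 53 UMIs in the WT cell and 1612 in the nod2-/- cells (47228 CPM), krt91 had 17 and 609, and krt5 had 28 and 604. krt5 and krt15 were seen in all of these cells. krt17, a keratin of stressed and stratified epithelia in mammals, had 0 and 55 UMIs, so that 84.6% of all krt17 UMIs came from these cells. A single nod2-/- cell held 58.6% of the keratin UMIs of the nod2-/- group. krt18a.1, krt18a.2, krt18b and krt97 had no UMI in them.

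These few cells had a large part in several differences between whole libraries. The stromal cluster as a whole had 0.887% of its UMIs from keratins in WT and 1.84% in nod2-/-, a log2 ratio of 1.05 (0.96 to 1.14), whereas its mesothelial-like cells alone, and likewise the cluster without the cfl1l-positive cells, had 0.04. Over all cells krt5 had 9.63 and 43.5 CPM, and its place differed between the libraries. The cfl1l-positive cells held 8.54% of its WT and 62.4% of its nod2-/- UMIs, and the cnfn-positive cells 62.2% and 30.2%. Over all cells krt15 had 84.0 and 178 CPM, the cfl1l-positive cells held 1.85% of its WT and 40.7% of its nod2-/- UMIs, and the cnfn-positive cells held 85.3% and 34.9%. So a large part of the nod2-/- levels of krt5, krt15 and krt17 came from 10 cells, whereas the WT levels of krt5 and krt15 came mostly from cnfn-positive cells and krt17 had 4 UMIs in WT. The krt5 difference was not wholly theirs. Within the cnfn-positive cells krt5 was also higher in nod2-/-, at 333 and 550 CPM, while krt15 was lower there, at 3981 and 2609.

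Endothelial cells, marked by cdh5, also had krt94, krt15 and krt8 as their main keratins, although endothelium is not a tissue known for keratins. There were 14 WT and 63 nod2-/- cells, and cdh5 was seen in 6 and 28 of them. krt94 had 2233 CPM in WT (60 UMIs) and 3398 in nod2-/- (447 UMIs), krt15 2047 and 2721 CPM, and krt8 1489 and 1915 CPM. These summed levels are of the size seen in mesothelial-like cells. In the endothelial cells podxl was seen in 5 and 19 cells and wt1a in 0 and 1. Whether the cells with podxl are those that hold the keratin UMIs was not tested. Per cell the keratin share was lower, with medians of 0.228% and 0.450% against 0.647% and 0.721% in mesothelial-like cells. Of the krt94 UMIs, 5 cells held 93.3% in WT and 68.7% in nod2-/-. For krt15 the 5 cells with the most held 96.4% and 71.2%, and for krt8 85.0% and 46.8%. krt18b was much lower than in mesothelial-like cells, at 149 and 175 CPM.

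Cluster 23, which has no name because its markers point to several classes, was another site of krt94. It had epcam at 861 CPM in WT and 615 in nod2-/- and cdh1 at 1154 and 2206, while col1a1a, col1a2 and cdh5 were at 0 UMIs. The cluster was not counted among the epithelial cells, so the epithelial krt94 ratio given above leaves it out. It held 40 WT and 32 nod2-/- cells and 25.5% of all krt94 UMIs. The level was 2240.4 CPM in WT (466 UMIs) and 5568 in nod2-/- (371 UMIs), a log2 ratio of 1.31 (1.11 to 1.51), the opposite direction to the cnfn-positive cells. The simple epithelial pair was lower in the nod2-/- cells of this cluster, with krt8 at 2389 and 1876 CPM and krt18a.1 at 2173 and 1306. krt91 had 202 UMIs in WT and 1 in nod2-/-, but 5 WT cells held 90.6% of them.

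The genes most like the main members in their pattern over the 26 clusters were found by Pearson's r of log2(CPM + 10). For krt92 they were mgst3a (0.94), si:dkey-36i7.3 (0.93) and serpinb1l3 (0.93). For krt4 they were mgst3a (0.93), prr13 (0.90) and si:dkeyp-73b11.8 (0.89), so that mgst3a stood first for both. For krt18a.1 they were rbm24a (0.89), myo10 (0.88) and fxyd1 (0.85). For krt8 they were perp (0.91), tp53bp2a (0.91) and si:ch211-166a6.5 (0.90), of which perp encodes a desmosome protein. For krt91, the leading keratin of the cnfn-positive cells, they were s100w (0.90), cpt1cb (0.87) and LO017965.1 (0.86).

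The genes that anchor or regulate keratin filaments were compared between the libraries in the same way, beside the 6.06% of all genes that were at least 2-fold lower and the 3.36% that were higher in nod2-/- epithelial cells. Of 9 plakins and linkers with at least 20 UMIs in epithelial cells, 1 was at least 2-fold lower in nod2-/- and none higher. This was evpla, with 63 WT and 18 nod2-/- UMIs, of which 37 and 11 came from cnfn-positive cells. Among 8 plakophilin and plakoglobin genes and 4 genes of epithelial adhesion none was past 2-fold in either direction. Of 11 keratinocyte regulators and cornified layer genes 1, cnfn, was higher and none lower. The cnfn-positive cells, named by this gene, held 1103 of its 1110 WT and 1450 of its 1483 nod2-/- UMIs. Of 4 other intermediate filament genes 1 was higher and none lower. The median log2 ratio was -0.35 for the plakins, -0.11 for the plakophilins and -0.47 for the keratinocyte genes, beside -0.12 for all genes. Levels over both libraries were compared between 11 classes, which leave out the cycling, cfl1l-positive, other stromal, pancreatic and hepatocyte-like cells. Among these, the plakins ppl, evpla and evplb were highest in the cnfn-positive cells. So were the keratinocyte genes tgm5l, scel, grhl2b and klf4, and cnfn by the naming of these cells. The 10 nod2-/- cfl1l-positive cells lay above them for ppl, at 205 CPM from 7 UMIs against 132, and for evpla, at 175.8 CPM from 6 UMIs against 20.7. plecb, a plectin that links filaments to hemidesmosomes, was highest in tuft cells at 1656 CPM over both libraries, against 361 in enterocytes. eppk1, an epiplakin, had 628 CPM in goblet cells and 581 in mesothelial-like cells, against 89.5 in enterocytes. dspa, the desmoplakin gene that joins keratins to desmosomes, ranged from 371.5 CPM in BEST4 cells to 22.7 in leukocytes, with 57.8 in mesothelial-like cells. The junction gene perp was highest in endothelial cells at 429 CPM, where krt8 was also high.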

How the data were processed

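The authors aligned the reads to GRCz11 with Cell Ranger 7.0.1 and deposited UMI counts per gene and cell, which were read without change. All deposited cells were used. No cell has under 500 UMIs. The limits that the methods word (200 to 2500 UMIs, at most 25% mitochondrial) would keep 2252 WT and 2872 nod2-/- cells, and they were run as an alternative.

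Clustering used R 4.3.3, Seurat 5.3.0 and Matrix 1.6.5, after log normalization and canonical correlation integration, with 2000 variable genes, 50 principal components and a resolution of 0.8. The keratins and their partner genes, unless they were markers, were kept out of the variable genes. Clusters were named from marker genes, of which at least 3 had to reach 2 times the median cluster. The mean log2 score of the markers also had to reach 1.5 and lie at least 1 above other classes. Cycling cells were named from the number of their own markers and needed no such margin. The cnfn-positive cluster was named only because cnfn was among its 10 leading genes, and its best class by the score was goblet cells. The scoring was set after the clusters had been seen. Doublet scores came from Scrublet in scanpy 1.11.5. Its automatic caller marked 2 cells per library and so had not worked, and no cell was removed except in an alternative.

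For each library, the UMIs of a class were added up in Python 3.11.15 (pandas 2.3.3, numpy 2.4.6 and scipy 1.17.1, with matplotlib 3.10.9 for plots). Levels carry exact Poisson intervals, shares exact binomial intervals and ratios exact conditional binomial intervals, all at 95%. A value of 0 UMIs was set to 3 for a bound. TMM factors for an alternative came from edgeR 4.0.16. The arithmetic was tested on simulated data.

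Every member was counted. Those with at least 20 UMIs are named with levels, and ratios need 20 UMIs in the class. The 3 genes most alike are named for the 4 members with the most UMIs and for the leading member of the cnfn-positive and of the mesothelial-like cells. Partner genes are named from at least 200 UMIs and a 4-fold range over classes, at most 3 per list. The members and lists were chosen with earlier results of these data known.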

Additional observations from a re-analysis of the deposited data

How the results depend on the processing

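With 1 library per genotype no value has a replicate check, and no test was run. No paired analysis was possible because each genotype has a single library. Of 736 alternative values of the 68 member ratios, 546 moved by less than the counting interval, 182 moved further and 8 turned the direction of a ratio that was past 2-fold. The lower krt97 level of nod2-/- epithelial cells stayed past 2-fold in 14 of 14 alternatives (-1.88 to -1.01). TMM scaling shifted every epithelial ratio by the same amount, and the summed keratins went from 0.01 to 0.12.

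The epithelial sum was -0.014 with at most 25% mitochondrial UMIs, -0.031 as a mean of the CPM of each cell and -0.055 thinned to 500 UMIs. It was -0.062 without the 1% of cells with the most keratin UMIs. This top 1% was taken in each class and library by the UMIs of the gene or sum in question, with at least 1 cell removed. The epithelial sum was -0.038 with cells classed one by one from markers and -0.10 without the cnfn-positive cells. The sum of the cnfn-positive cells (0.17) was 0.22 with 30 principal components, 3.89 within the limits of the methods, which leave 1 WT cell, 0.34 with TMM, 0.50 as a mean over cells, 0.23 without the top 1%, 0.48 thinned and -0.072 by single-cell markers. That of the mesothelial-like cells (0.04) was 0.25 at resolution 0.4, 0.34 within the limits, 0.18 with TMM and 1.05 over the whole stromal cluster. The count of 1 higher epithelial member was 0 at resolution 0.4, as a mean over cells, with a minimum of 100 UMIs and with clusters 23, 25 and 27 added, 2 within the limits, without the top 1% and without cnfn-positive cells, and 3 by single-cell markers. The count of lower members stayed at 3 or 4.

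Directions that turned were those of krt18b in epithelial cells (-0.89 at resolution 0.4, -0.069 as a mean over cells, -0.88 with the 3 clusters added), krt1-19d in epithelial cells (0.45 as a mean) and enterocytes (0.56 as a mean, 0.29 by single-cell markers), krt92 in mesothelial-like cells (-0.31 as a mean) and krt94 in epithelial cells (0.14 without cnfn-positive cells). The cause was not tested. Alternatives were run only for epithelial cells together and for enterocytes, lysosome-rich enterocytes, goblet cells, cnfn-positive cells and mesothelial-like cells. Ratios past 2-fold elsewhere, such as in enteroendocrine cells and cluster 23, were not checked in this way. Of the 16 ratios past 2-fold in the classes that were checked, 6 stayed so in every alternative. These were krt97 in epithelial cells and lysosome-rich enterocytes, krt15 in enterocytes and lysosome-rich enterocytes, and krt18a.1 and krt94 in cnfn-positive cells. Yet krt15 had only 12 and 29 UMIs in enterocytes and 2 and 19 in lysosome-rich enterocytes, at levels below those of leukocytes. For krt94, 5 WT cells held 1058 of the 1175 UMIs. The other ratios in epithelial cells stayed past 2-fold in 13 of 14 (krt1-c5), 11 of 14 (krt94), 8 of 11 (krt18b) and 9 of 11 (krt1-19d). Those in enterocytes stayed so in 10 of 11 (krt97) and 4 of 8 (krt1-19d), and in lysosome-rich enterocytes in 8 of 9 (krt96) and 5 of 7 (krt5). It was 7 of 9 in goblet cells (krt96) and 4 of 9 in mesothelial-like cells (krt92). Settings for clusters 23, 25 and 27, WT cluster weights and the whole stromal cluster were added after seeing the data.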
